A study of Homo sapiens with 8 samples.

Results

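PTPRF and 9 other protein tyrosine phosphatase genes were followed across 8 clones of RPMI-8402, an established line of malignant T-lineage lymphoblasts. They are PTPRF, PTPRS, PTPRK, PTPRA, PTPRE and PTPRJ, which encode receptor-type enzymes, and PTPN1, PTPN2, PTPN6 and PTPN7, which encode enzymes inside the cell. These 10 genes of the 61228 in the deposited count table were chosen by symbol, with results of these data known. PTPRF was listed because it passed the threshold in the comparison of knockout and wild-type clones. Its difference between those groups, and those of the genes listed beside it, are therefore given as a description with no test. Of the 10 genes, 9 had enough counts to enter the fit, and PTPRK did not.

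The study sequenced RNA from 4 clones in which NKX2-1, a homeobox transcription factor, had been knocked out, and from 4 wild-type clones, to ask how transcription differs without it. The knockout clones are C12, C15, S04 and S36 and the wild-type clones are WT10, WT13, WT28 and WT30. Each is a line grown from 1 clone of the same parent line, no treatment is given, and so a difference between groups is a difference between 4 and 4 such lines. The labels do not give the kind of edit or what divides the C from the S clones, and they do not say whether the wild-type clones went through the same procedure.

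Protein tyrosine phosphatases remove phosphate from tyrosine residues and so oppose, or in some cases switch on, the tyrosine kinases. The receptor type has a single membrane span and an extracellular part that binds matrix, proteoglycans or neighbouring cells. PTPRF, also called LAR, forms a small family with PTPRS and PTPRD, best known from adhesion of epithelial cells and from synapses. In T cells the best known members are PTPRC, or CD45, which activates the kinase LCK, and PTPN6, PTPN2 and PTPN1, which damp signals of antigen and cytokine receptors.

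Library totals ran from 12344549 to 25423215 counts, except for C15 with 2730285. CPM, a count scaled to one library total for all clones, has a floor (3 counts, the limit that a count of 0 allows) of 1.21 in C15 and 0.116 to 0.229 in the others. Such limits cover counting error only. Mitochondrial transcripts took 14.8% to 21.2% of counts in knockout clones and 12.9% to 15.1% in wild-type clones. Transcripts of NKX2-1 itself were at 72.0 (C12), 11.3 (C15), 83.6 (S04) and 33.4 CPM (S36), against 53.6 to 63.2 in wild-type clones, and a count over the whole gene does not reveal an edit within it. Of 12 markers of T-lineage leukaemia 11 were tested, and CD3D was at 456 to 626 CPM in every clone. Not every marker was high or even: RAG1 was at 0 to 1.43 CPM and RAG2, the untested one, at 0 to 0.479. PTCRA ran from 0.0944 CPM in WT28 to 15.7 CPM in C15. None of the 11 tested markers passed the threshold in edgeR or limma-voom and 2 did in DESeq2, with 2 at an unadjusted edgeR p under 0.05. Over all tested genes 0.316% passed in edgeR, 0.66% in limma-voom and 3.89% in DESeq2, and 15.5% had an unadjusted edgeR p under 0.05. CD5 was at 37.1 to 71.2 CPM in knockout and 84.8 to 116 CPM in wild-type clones, and CD7 at 1.30 to 3.80 and 5.59 to 6.55 CPM. For both, every knockout clone lay below every wild-type clone, as in 5.62% of all tested genes. The 5 epithelial markers summed to at most 0.543 CPM in knockout and 0.0532 CPM in wild-type clones, with EPCAM and KRT19 at 0 in all 8. The 6 myeloid markers summed to at most 1.87 CPM, and LYZ and FCGR3A were at 0 in all 8. The 5 B-cell markers summed to 7.003 to 14.2 CPM in knockout and 9.84 to 16.9 CPM in wild-type clones, with MS4A1 at 0 in all 8. The 5 fibroblast markers, mostly COL1A1 and otherwise PDGFRB, summed to 6.495 to 15.2 CPM and 14.4 to 21.1 CPM. PDGFRB was at 0 to 1.27 CPM in knockout and 1.01 to 3.67 CPM in wild-type clones. Their part in the results below was not tested.

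PTPRF lies on the plus strand of chromosome 1 from 43525187 to 43623666 (hg38, GENCODE release 29), and PTPRS on the minus strand of chromosome 19 from 5158495 to 5340803. The 250 bases before the start sites that RefSeq gives for these 2 genes are shown because PTPRF and PTPRS are the LAR genes whose levels are compared here and both windows are rich in CG, the dinucleotide at which promoter DNA is methylated. They come from the RefSeq promoter windows of GRCh38.p14, at chr1:43530633-43530882 on the plus strand and chr19:5340813-5341062 on the minus strand, written 5′ to 3′ with each CG in capitals. The RefSeq start used for PTPRF, at 43530883, lies inside the GENCODE gene rather than at its first base. PTPRF overlaps no other annotated gene, nor do PTPN6 (chromosome 12 from 6946468 to 6961316) and PTPN7 (chromosome 1 from 202147013 to 202161588). PTPRS, PTPRK (chromosome 6 from 127968779 to 128520674), PTPRE (chromosome 10 from 127907061 to 128085855), PTPRJ (chromosome 11 from 47980558 to 48170841), PTPN1 (chromosome 20 from 50510321 to 50585241) and PTPN2 (chromosome 18 from 12785478 to 12929643) share bases with genes of the opposite strand, and with the strand setting of the counts unknown their reads could have been mixed. PTPRE, PTPRJ and PTPN1 also share bases with an annotated gene of their own strand, where the strand setting would not separate reads.
PTPRF: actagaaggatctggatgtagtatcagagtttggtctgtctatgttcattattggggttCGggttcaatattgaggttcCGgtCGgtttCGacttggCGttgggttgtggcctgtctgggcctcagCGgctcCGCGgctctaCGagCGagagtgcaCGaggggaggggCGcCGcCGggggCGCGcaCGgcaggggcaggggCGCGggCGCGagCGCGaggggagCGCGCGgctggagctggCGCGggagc
PTPRS: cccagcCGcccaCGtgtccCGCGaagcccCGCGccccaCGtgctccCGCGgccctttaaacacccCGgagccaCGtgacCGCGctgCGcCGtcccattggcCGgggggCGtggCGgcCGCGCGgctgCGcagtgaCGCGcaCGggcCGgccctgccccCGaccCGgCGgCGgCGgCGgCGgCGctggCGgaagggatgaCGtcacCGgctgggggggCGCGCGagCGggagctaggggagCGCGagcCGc
The PTPRF window holds 28 CG dinucleotides and the PTPRS window 44, against a median of 11 over 35116 windows of this length from 27305 genes. As many or more CG dinucleotides were found in 15.9% of all windows for PTPRF and in 0.769% for PTPRS. No methylation was measured in these files.

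The series title names NKX2-1 and RUNX1, and 4 short motifs of these factor families were searched on both strands of the windows. They were TGTGGT and TGCGGT for RUNX factors and CAAGTG and CTCAAG for NKX2 factors, of which the last pair can overlap by 4 bases. The 4 motifs were found in 10.98%, 5.84%, 9.50% and 10.4% of all windows in that order, and 31.6% held at least 1 of them. Neither the PTPRF nor the PTPRS window holds any of these letters. TGTGGT is present before PTPRA and PTPRE, CAAGTG before PTPRA and PTPN6, and CTCAAG before PTPRE, PTPN2 and PTPN6. Some of these windows precede start sites well inside the GENCODE gene. Examples are the PTPN2 window (start site 12840962) and the PTPRE window with TGTGGT (start site 127998147). In all, 7 of 16 windows of 9 of the genes hold at least 1 motif, and PTPRJ had no window. A match is a string of letters and not a bound site, and its absence says only that these letters are not in this window.

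PTPRF mRNA was present in every wild-type clone and low in every knockout clone. It was at 25.6 (WT10), 40.3 (WT13), 12.1 (WT28) and 23.4 CPM (WT30). In the knockout clones it was at 2.08 (C12), 4.04 (C15), 2.90 (S04) and 0.688 CPM (S36). The groups did not overlap: WT28, the lowest wild-type clone, was 3.003-fold above C15, the highest knockout clone. The C15 value rests on 10 counts and has an exact Poisson interval of 1.94 to 7.42 CPM, and the S36 value rests on 9 counts and has one of 0.314 to 1.31 (95%, counting error only). Both upper bounds lie below the lower bound of 10.7 CPM in WT28. PTPRF was listed for its group difference, so this is no test of that difference. PTPRF transcripts were low but still counted in all 4 knockout clones. In bulk RNA fewer cells with PTPRF and less PTPRF per cell cannot be told apart. The mean was 2.43 ± 1.41 CPM in knockout and 25.4 ± 11.6 CPM in wild-type clones (SD, n = 4 each). The log2 fold change, fitted to the counts and not taken from these means, was -3.55 (SE 0.48).

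**Figure D1:**
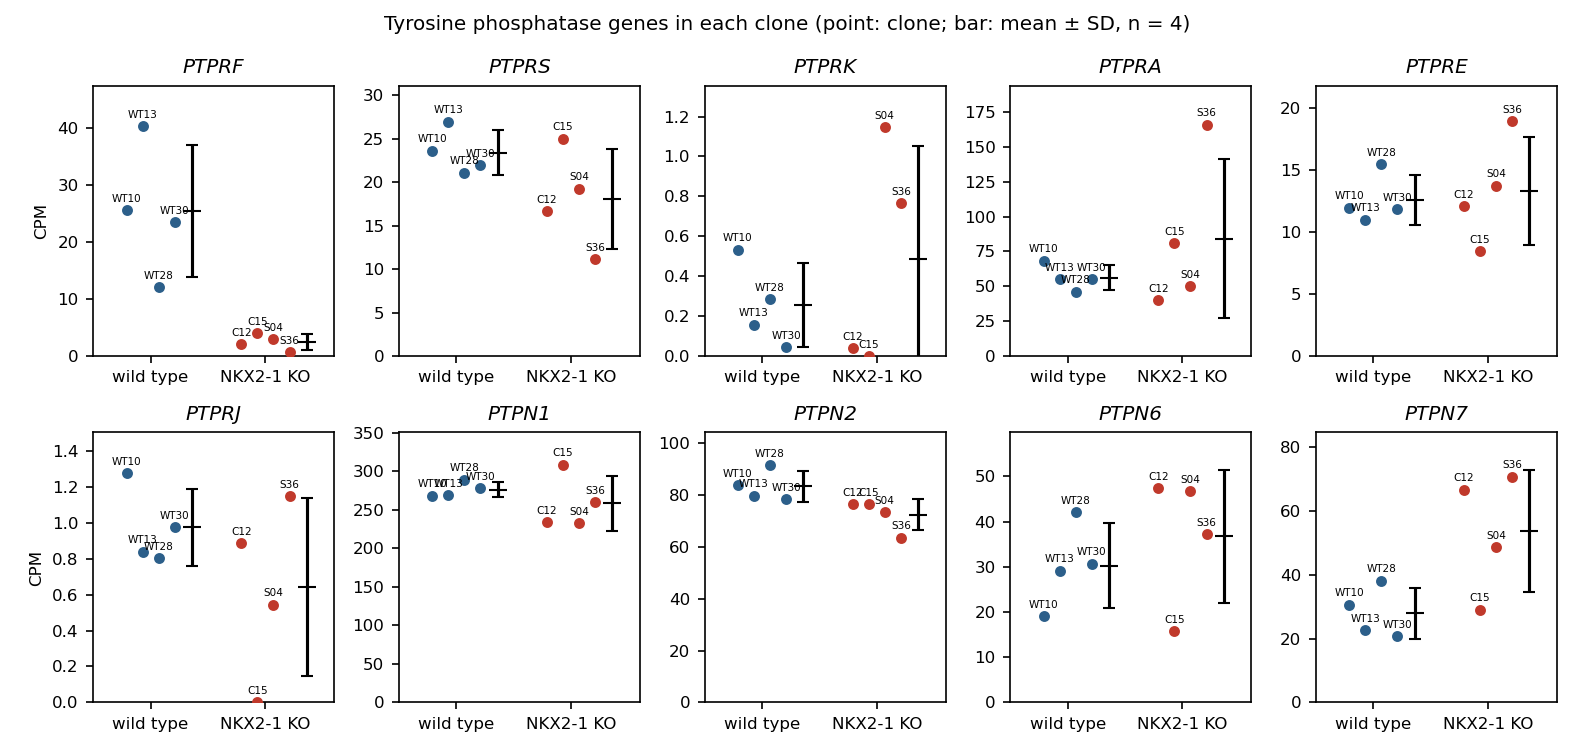
CPM of each of the 10 phosphatase genes in each clone (one panel per gene, linear axis from 0, wild-type clones left in blue and knockout clones right in red, bars the mean ± SD, n = 4). PTPRF is at 0.688 to 4.04 CPM in knockout and 12.1 to 40.3 in wild-type clones; apart from PTPRF, only PTPN2 has groups that do not overlap; the SD bar of PTPRK runs below 0 and is not drawn there.

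The wild-type clones themselves differed in PTPRF by 3.32-fold from WT28 to WT13. The SD of log2 CPM over the 4 wild-type clones was 0.71 for PTPRF, against a median of 0.18 over all tested genes. An SD at least as large was found in 3.97% of the 14243 tested genes and in 11 of 1911 genes (0.576%) whose wild-type level lay within 0.5 of that of PTPRF on the log2 scale. Of the other phosphatase genes in the fit, as large an SD was found in 1.24% of genes of a similar level for PTPN6 (0.47), 2.08% for PTPN7 (0.41) and 7.31% for PTPRA (0.23), and in 33.3% or more for PTPRS, PTPRE, PTPRJ, PTPN1 and PTPN2. PTPN1 had the smallest SD (0.051).

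No tested gene among the nearest neighbours of PTPRF differed by as much. Of its 10 nearest protein-coding genes, 9 are in the table and 8 were tested, and HYI, the ninth, had no count in any clone. None of the 8 passed the threshold in edgeR, DESeq2 or limma-voom, and none had an unadjusted edgeR p under 0.05. Over all tested genes the shares were 0.316%, 3.89%, 0.66% and 15.5% in that order, so few calls among 8 genes say little. Their log2 fold changes ran from -0.28 for KDM4A, a histone demethylase gene, to 0.68 for ELOVL1, a fatty acid elongase gene. Over 126 tested genes within 5 Mb of PTPRF the median log2 difference from the wild-type mean was 0.072 (C12), 0.0083 (C15), -0.00057 (S04) and 0.013 (S36). PTPRF itself differed from that mean by -3.41, -2.49, -2.96 and -4.87 in these clones.

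**Figure D2:**
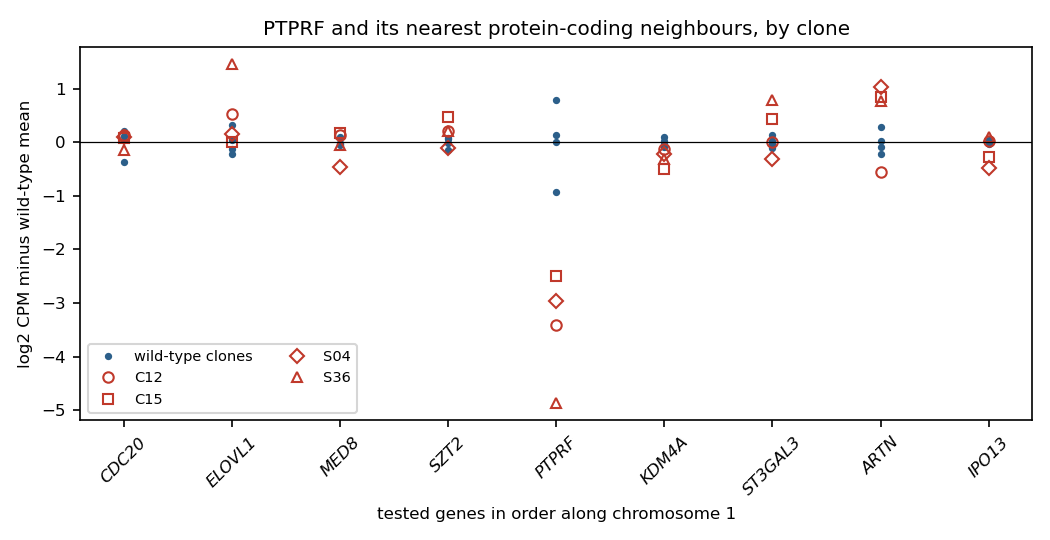
Log2 CPM minus the wild-type mean in each clone for PTPRF and the tested genes beside it, in order along chromosome 1. PTPRF stands between -4.87 and -2.49 in the knockout clones. Its 8 tested neighbours run from -0.56 (ARTN in C12) to 1.46 (ELOVL1 in S36) in these clones. Their fitted log2 fold changes between the groups run from -0.28 to 0.68.

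PTPRS, a LAR family receptor that binds heparan and chondroitin sulphate proteoglycans, was close in level in both groups. It was at 16.7 (C12), 25.0 (C15), 19.3 (S04) and 11.2 CPM (S36). In wild-type clones it was at 23.6 (WT10), 27.0 (WT13), 21.1 (WT28) and 22.0 CPM (WT30). C15 lay among the wild-type clones and the other knockout clones below them, so the groups overlapped, and the log2 fold change was -0.41 (SE 0.23), or -0.24 without S36. Within each group PTPRS ranked the clones as PTPRF did, with WT13 highest and WT28 lowest among wild-type clones and C15 highest and S36 lowest among knockout clones. The full order in both groups was that of PTPRF in 28 of the other 14242 tested genes (0.197%), and PTPRS was the only one of 24 other tested classical phosphatase genes with it. This order was noticed after the values were seen, is a description of 8 libraries, and the genes share the libraries it is read from. Parts of it lie within counting error. Exact Poisson intervals (95%) of PTPRF overlapped between WT10 (23.36 to 27.99 CPM) and WT30 (21.48 to 25.53 CPM). Those of C15 (1.94 to 7.42 CPM) and S04 (2.14 to 3.84 CPM) overlapped too.

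PTPRD, the remaining member of the family, is not among the genes listed but sets the family's total. It was at 142 to 291 CPM in knockout clones and 120 to 176 CPM in wild-type clones, which differed by 0.37 in log2 CPM (SE 0.22, edgeR adjusted p = 0.451). PTPRD lies on chromosome 9, whose median was 0.21 in C12, 0.37 in C15 and 0.40 in S04, with 0.35 for S36, and the part of that shift was not tested. Per kb of exon, the scale on which genes can be compared, wild-type clones held 3.28 CPM per kb of PTPRF, 3.91 of PTPRS and 16.8 of PTPRD. In knockout clones these levels were 0.314, 3.01 and 21.6 CPM per kb. PTPRF made up 11.5% of the family's summed CPM in WT10, 16.6% in WT13, 7.91% in WT28 and 11.1% in WT30, against 0.227% in S36, 1.26% in S04, 1.30% in C12 and 1.96% in C15. The ratio of PTPRF to PTPRS in CPM was 0.575 to 1.49 in wild-type clones and 0.0616 to 0.161 in knockout clones. The ratios of the groups did not overlap, which the choice of PTPRF for its group difference made likely. PTPRD was the most abundant LAR gene in all 8 clones.

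**Figure D3:**
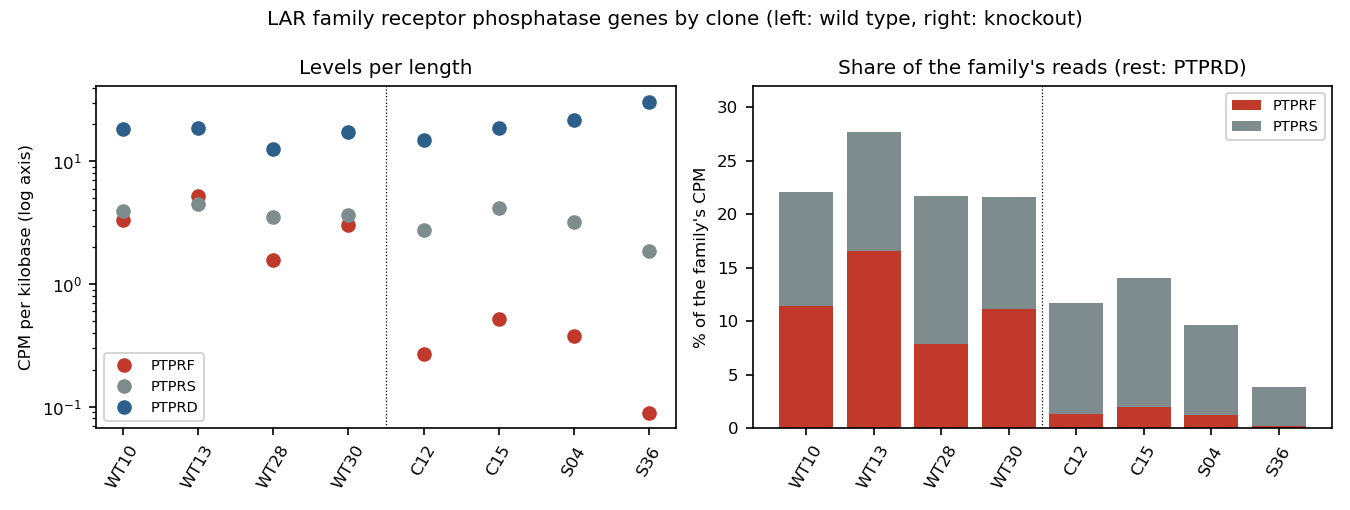
CPM per kb of exon of PTPRF, PTPRS and PTPRD in each clone on a log axis, and stacked bars of the shares of PTPRF and PTPRS in the summed CPM of these 3 genes. The PTPRF share is 7.91% to 16.6% in wild-type and 0.227% to 1.96% in knockout clones.

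PTPRA and PTPRE are closely related receptors with short extracellular parts that act on Src family kinases. PTPRA was at 39.9 (C12), 80.7 (C15), 49.9 (S04) and 166 CPM (S36), and at 46.1 to 68.4 CPM in wild-type clones. S36 stood far above all other clones and C12 below them, so the log2 fold change of 0.58 (SE 0.38) was carried by 1 clone and was -0.014 without S36. PTPRA lies on chromosome 20 from 2864184 to 3039076, and the median log2 difference over 60 tested genes within 5 Mb was -0.55 (C12), 0.053 (C15), -0.57 (S04) and 0.47 (S36). PTPRA itself stood at -0.48 (C12), 0.54 (C15), -0.16 (S04) and 1.58 (S36). C12 lay below the wild-type range, C15 and S36 above it and S04 within it, and the part of the surroundings was not tested. VPS16 overlaps PTPRA on the same strand, so reads in the overlap cannot be assigned with certainty. PTPRE was at 12.1 (C12), 8.48 (C15), 13.8 (S04) and 19.0 CPM (S36), against 11.02 to 15.5 CPM in wild-type clones. The groups overlapped, the log2 fold change was 0.11 (SE 0.24), and its sign turned without S36, to -0.10.

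PTPRJ, or CD148, and PTPRK, a receptor that binds its own kind on other cells and acts on cadherin complexes, were at low levels. PTPRJ was at the limit of detection in C15 only, and PTPRK at or under it in C12, C15, WT13 and WT30. PTPRJ was at 0.887 (C12), 0 (C15), 0.543 (S04) and 1.15 CPM (S36), against 0.802 to 1.28 CPM in wild-type clones. The 0 in C15 allows up to 1.21 CPM, which is near the wild-type level, so a difference there was not detectable at this depth. PTPRK had 1, 0, 19 and 10 counts in C12, C15, S04 and S36 and 10, 3, 6 and 1 counts in WT10, WT13, WT28 and WT30. Its counts differed within both groups and were too few to enter the fit.

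The 4 intracellular enzymes were expressed in every clone. PTPN1, or PTP1B, sits on the endoplasmic reticulum and acts on the insulin receptor and JAK kinases. It was at 234 (C12), 308 (C15), 232 (S04) and 260 CPM (S36), and at 268 to 289 CPM in wild-type clones. On the log2 scale knockout minus wild type was -0.10 (SE 0.14), with C15 above and the other knockout clones below every wild-type clone. PTPN1 is also on chromosome 20, where the median over its 52 neighbours within 5 Mb was -0.33 (C12), -0.046 (C15), -0.28 (S04) and -0.28 (S36).

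PTPN2, the T-cell phosphatase, acts on JAK and STAT proteins. It was at 76.4 (C12), 76.3 (C15), 73.4 (S04) and 63.5 CPM (S36). In wild-type clones it was at 83.8 (WT10), 79.7 (WT13), 91.5 (WT28) and 78.4 CPM (WT30). Every knockout clone lay below every wild-type clone, but by a small step of -0.20 in log2 CPM (SE 0.13). WT30, the lowest wild-type clone, was 1.027-fold above C12, the highest knockout clone. Their exact Poisson intervals overlapped, at 74.79 to 82.15 CPM in WT30 and 73.03 to 79.8 CPM in C12 (95%, counting error only). The groups failed to overlap in 2 of the 9 genes in the fit, PTPRF and PTPN2, and the same held for 10.1% of all tested genes, 5.62% with the knockout clones below and 4.44% with them above. In edgeR 0.316% of tested genes (3.89% in DESeq2, 0.66% in limma-voom) passed the threshold of an adjusted p of 0.05, and PTPRF, listed for that reason, did so alone among the 9. In DESeq2 PTPN7 passed beside PTPRF and in limma-voom PTPRF alone, counts from which nothing is read because results chose the genes.

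PTPN6, or SHP-1, docks on inhibitory receptors and damps antigen receptor signals. It was at 47.4 (C12), 15.7 (C15), 46.7 (S04) and 37.1 CPM (S36). In wild-type clones it was at 19.1 (WT10), 29.2 (WT13), 42.1 (WT28) and 30.7 CPM (WT30). C15 and WT10 were low and the groups overlapped, and the fitted log2 fold change was 0.31 (SE 0.32), which ran from 0.13 without WT10 to 0.53 without C15. PTPN7, a phosphatase of blood cells that acts on MAP kinases, was at 66.6 (C12), 29.1 (C15), 48.6 (S04) and 70.7 CPM (S36), and at 30.5, 22.5, 38.1 and 20.6 CPM in WT10, WT13, WT28 and WT30. Of the knockout clones, C12, S04 and S36 lay above every wild-type clone and C15 among them, and the log2 fold change was 0.96 (SE 0.28), the highest of the 9.

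The genes did not order the clones alike. WT28 was the lowest wild-type clone for PTPRF, PTPRS, PTPRA and PTPRJ and the highest for PTPRE and all 4 intracellular genes. S36 was the lowest knockout clone for PTPRF, PTPRS and PTPN2 and the highest for PTPRA, PTPRE, PTPRJ and PTPN7. These orders were read from the values after they were seen.

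In CPM per kb, wild-type clones ranked the genes from PTPN1 (68.9) through PTPN2 (24.0), PTPRA (16.1), PTPN6 (14.0), PTPN7 (7.42), PTPRS (3.91), PTPRF (3.28), PTPRE (2.36) and PTPRJ (0.190) to PTPRK (0.0418). PTPRA and PTPN6, PTPN6 and PTPN7, PTPRS and PTPRF, and PTPRF and PTPRE overlapped over the wild-type clones, and the other neighbours in this order did not. Among all 37 classical phosphatase genes PTPRF ranked 13 in wild-type and 20 in knockout clones, and PTPN1 ranked 1 in both.

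**Figure D4:**
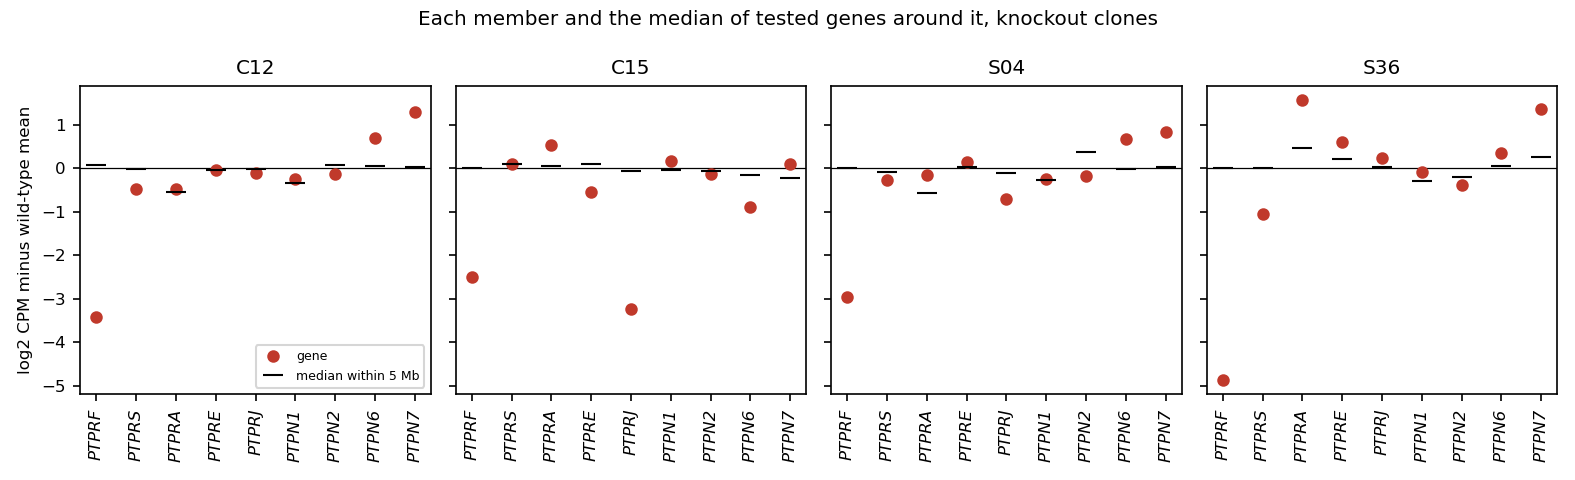
Log2 difference from the wild-type mean of each listed gene in each knockout clone, beside the median over tested genes within 5 Mb of it. PTPRF lies far from a median near 0, whereas for PTPRA in S36 both are above 0 (1.58 and 0.47); the value of PTPRJ in C15 stands for a count of 0.

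The C and S clones were compared in a fit with the wild-type clones as the other group, a contrast that played no part in the choice of genes. None of the 9 genes passed the threshold in edgeR, DESeq2 or limma-voom, and none had an unadjusted edgeR p under 0.05, against 0.358% of all tested genes past the threshold in edgeR, 5.54% in DESeq2, 0.625% in limma-voom and 17.1% at an unadjusted edgeR p under 0.05. For PTPRF the C clones averaged 3.06 and the S clones 1.79 CPM, a log2 difference of 0.49 (SE 0.75, edgeR adjusted p = 0.781) that turned to -0.22 without S36. For PTPRA the difference was -0.88 (SE 0.50, edgeR adjusted p = 0.408), which turned to 0.22 without S36. For PTPRE it was -0.62 (SE 0.29, edgeR adjusted p = 0.313). With 2 clones a letter these intervals are wide, and a p above the threshold does not show that C and S clones are alike.

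Of the 27 other classical phosphatase genes, 16 were tested and 4 had no count in any clone. None passed the threshold between knockout and wild-type clones in edgeR, DESeq2 or limma-voom, and 3 had an unadjusted edgeR p under 0.05, as did 15.5% of all tested genes. Their median log2 fold change was 0.20, with 11 above 0 and 5 below, against 0.020 over all tested genes. PTPRC was at 55.7 to 369 CPM in knockout and 141 to 236 CPM in wild-type clones, a fitted difference of -0.064 in log2 CPM (SE 0.44, edgeR adjusted p = 0.967). PTPN11, or SHP-2, which promotes growth factor signals, had 0.19 (SE 0.17, edgeR adjusted p = 0.628), or 0.0092 without C15. PTPN23, an endosomal protein, had 0.52 (SE 0.18, edgeR adjusted p = 0.202), PTPN18 had -0.69 (SE 0.31, edgeR adjusted p = 0.312) and PTPN4 -0.18 (SE 0.22, edgeR adjusted p = 0.740). PTPRU, named after its values were seen, was the only one of the 16 with every knockout value below every wild-type value, as in 5.62% of all tested genes. It was at 0 to 0.733 against 0.849 to 3.04 CPM, but the 0 is that of C15 and allows up to 1.21 CPM, above WT28 (log2 fold change -1.998, SE 0.67, edgeR adjusted p = 0.200).

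**Figure D5:**
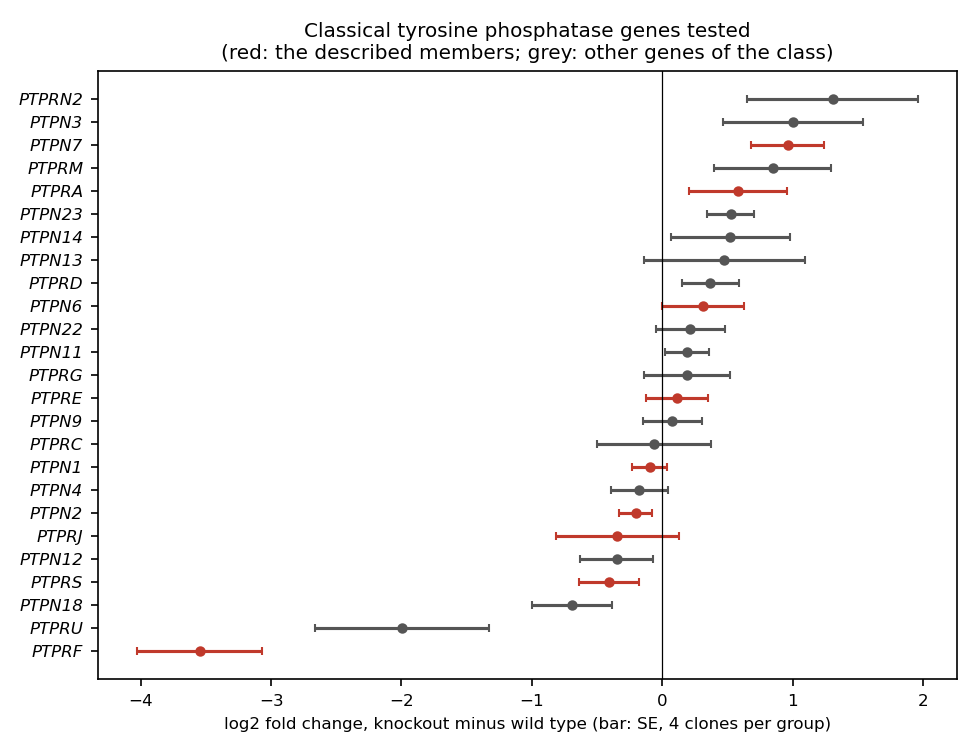
Log2 fold change, knockout minus wild type, with SE for the 25 classical phosphatase genes that entered the fit (red for the listed genes, grey for the others). PTPRF lies at -3.55, and the other 24 run from -1.998 (PTPRU) to 1.31, with 15 of all 25 above 0.

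The genes these enzymes act with were taken from 8 lists, and no gene of any list passed the edgeR threshold. Over all tested genes 0.316% passed it, 3.89% passed in DESeq2, 0.66% in limma-voom, and 15.5% had an unadjusted edgeR p under 0.05. Of 30 LAR ligands and partners 13 were tested, with 4 at an unadjusted edgeR p under 0.05, 1 past the threshold in DESeq2, 0 in limma-voom and a median log2 fold change of 0.0074. TRIO, a guanine nucleotide exchange factor that binds LAR, was at 11.3 to 28.3 CPM in knockout and 5.77 to 9.47 in wild-type clones, a fitted difference of 1.24 in log2 CPM (SE 0.30, edgeR adjusted p = 0.118). IL1RAP, a receptor subunit that also binds LAR family receptors, was at 0.404 to 1.38 and 1.31 to 2.88 CPM, with -1.07 (SE 0.41, edgeR adjusted p = 0.252). The lowest IL1RAP value, that of C15, rests on 1 count and is under the floor of 1.21 CPM. The IL1RAP difference was -0.66 with the S clones alone and -1.87 with the C clones alone. Of 30 other cysteine-based phosphatase genes 21 were tested, with 2 at an unadjusted p under 0.05, 2 past the DESeq2 threshold, 0 in limma-voom and a median of -0.069. ACP1 (-0.54, edgeR adjusted p = 0.116) and DUSP2 (-0.93, edgeR adjusted p = 0.136), the genes with the smallest p there, had every knockout clone below every wild-type clone, as in 5.62% of all tested genes. Both lie on chromosome 2, whose median was -0.34 (C12), -0.43 (C15), -0.35 (S04) and -0.24 (S36).

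Of 9 tested Src family and proximal T-cell kinase genes 2 had an unadjusted edgeR p under 0.05 and 0 passed in DESeq2 or limma-voom, with ABL1, on chromosome 9, at 0.72 (edgeR adjusted p = 0.183). Of 10 JAK and STAT genes 2 had an unadjusted p under 0.05 and 0 passed in DESeq2 or limma-voom, with STAT3 at 0.44 (edgeR adjusted p = 0.233). Of 9 tested receptor tyrosine kinase and insulin receptor substrate genes 3 had an unadjusted p under 0.05, 2 passed in DESeq2 and 0 in limma-voom, led by EPHB4 (-1.91, edgeR adjusted p = 0.102) and PDGFRB (-2.14, edgeR adjusted p = 0.177), with a median of -0.33. Of 9 tested receptors that dock PTPN6 or PTPN11, 4 had an unadjusted p under 0.05, 1 passed in DESeq2 and 0 in limma-voom, led by CD5 (-0.76, edgeR adjusted p = 0.138) and SIRPG (-1.31, edgeR adjusted p = 0.266). Of the 6 MAP kinase genes 1 had an unadjusted p under 0.05 and 1 passed in DESeq2 and 0 in limma-voom, led by MAPK11 (-1.35, edgeR adjusted p = 0.165) and MAPK9 (0.37, edgeR adjusted p = 0.476). Of 6 tested cadherin and catenin genes 1 had an unadjusted p under 0.05 and 0 passed in DESeq2 or limma-voom, led by CDH3 (-1.38, or -2.65 without C12, edgeR adjusted p = 0.317) and CTNNA1 (0.61, edgeR adjusted p = 0.336).

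The genes whose log2 CPM followed PTPRF most closely over the 8 clones were FAM117B and SH3PXD2B (Pearson r 0.976 for each), HEBP1 (0.967), CXCR4 (0.966), PDE9A (0.965), S1PR2 (0.963), B3GNT2 (0.961) and MAP4K4 (0.961), of 10555 genes that could be named. All 8 had every knockout clone below every wild-type clone, as PTPRF did, so r here mostly reads the distance between groups, and the 8 points share libraries. PDE9A, a phosphodiesterase gene, was at 6.17, 11.5, 2.59 and 6.13 CPM in WT10, WT13, WT28 and WT30 and at 1.54, 1.61, 0.845 and 0.153 CPM in C12, C15, S04 and S36. The PDE9A values of C15 and S36 rest on 4 and 2 counts, and that of S36 is under its floor of 0.229 CPM. S1PR2 had 7 counts in C15 and overlaps DNMT1 on the same strand. FAM117B, CXCR4, the chemokine receptor gene, B3GNT2 and MAP4K4 lie on chromosome 2, where the medians given above were below 0 in all 4 knockout clones.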

How the data were processed

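RNA sequencing of 8 RPMI-8402 clones was deposited by the authors as raw counts per gene symbol. FastQC, TopHat2, SAMtools, Subread and hg38 are named per the submitters' processing notes; roles, versions, annotation and strand setting are not stated in the sources used here. These deposited values were filtered (filterByExpr, 14243 genes), scaled (TMM) and tested two-sided by quasi-likelihood in edgeR 4.0.16 under R 4.3.3. The p-values were adjusted by Benjamini-Hochberg across the 14243 genes, with 0.05 as threshold. C and S clones were compared in a fit of 3 groups. DESeq2 1.42.0, limma-voom (limma 3.58.1), other scalings and filters, thinning and leaving out each clone were alternatives. Log2 CPM used a prior count of 2. Positions came from GENCODE release 29. The listed genes and the gene lists were chosen with earlier results of these data known. Named besides them were the 6 other classical phosphatase genes of highest mean CPM, the 2 genes of smallest p in each list, the 8 genes most like PTPRF and its neighbours. Some genes that this rule names are not reported here. Separate cultures are not stated, so p-values reflect only how far these clones spread, which may be technical. No libraries were alike within sampling noise: chi-square per degree of freedom was at least 13.8.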

Additional observations from a re-analysis of the deposited data

Results flagged for a closer look

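PTPRD, the most abundant gene of the LAR family, was lower in WT28 than in the other wild-type clones, at 6.91 against 7.37 to 7.46 on the log2 CPM scale, a gap of 0.833 of the whole range of the group. WT28 was also the wild-type clone with the least PTPRF and PTPRS. It was 1 of 62 groups of 4 clones looked at for a distant clone, and chance alone flags about 1 in 20 such groups, here 3.1.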

How the results depend on the processing

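The log2 fold change of PTPRF kept its sign under every alternative run, from -3.80 to -3.08, which the distance between its groups made all but certain. Genes past the threshold between knockout and wild-type clones numbered 45, and 29 with library totals as scaling, 581 with no filter, 521 in DESeq2, 94 in limma-voom, 1 with counts thinned to the smallest library, 6 with the C clones alone, 2211 with the S clones alone and 3 to 456 when 1 clone was left out. Between C and S clones they numbered 51, and 14 with RLE, 20 with upper-quartile scaling, 15 with library totals, 762 with no filter, 14 with a stricter filter, 651 in DESeq2, 89 in limma-voom, 3 after thinning, 14 with a filter on 3 groups, chosen after seeing the data, and 0 to 749 when 1 clone was left out. Each fit without a wild-type clone gave 0, with 1971 to 2095 genes at an unadjusted edgeR p under 0.05. The cause of these moves was not tested.

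Signs turned for PTPRC (0.018 with library totals, 0.037 without WT28, 0.22 without C15, 0.11 without S04, 0.30 with S clones alone, but -0.64 without S36), PTPRD (-0.016, C clones alone), PTPN11 (-0.035, S clones alone), PTPN4 (0.0052, thinned) and CTNNA1 (-0.0060, C clones alone). So did those of PTPRA (-0.014) and PTPRE (-0.10) without S36, and PTPRE with C clones alone (-0.24). With 1 clone left out, values also ran from -0.60 to -0.18 for PTPRJ, -0.20 to -0.050 for PTPN1, 0.14 to 0.50 for PTPRD, -0.27 to -0.030 for PTPN4, -3.30 to -1.78 for PDGFRB, 0.12 to 0.53 for MAPK9 and 0.25 to 0.76 for CTNNA1. For C minus S, signs turned for PTPRF (-0.22) and PTPRA (0.22) without S36, PTPRJ without C15 (0.084) or S36 (0.40), PTPN1 with library totals (-0.026) or without C15 (-0.084), PTPN6 without C15 (0.17) and PTPN7 without C15 (0.15) or S36 (0.041). At the other end these differences reached 1.84 for PTPRF and -1.52 for PTPRA without S04, and 0.32 for PTPN1, -1.42 for PTPN6, -1.04 for PTPN7 and -6.77 for PTPRJ without C12. The last depends on the prior count, since C15 had 0 counts of PTPRJ. C15, at 2730285 counts, limits PTPRJ and PTPRK. No paired analysis was possible because clone names pair no clones.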

Other observations

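PPFIA4 encodes a liprin, a scaffold protein of the family that binds the intracellular part of LAR receptors. It was at 7.66 (WT10), 16.7 (WT13), 3.92 (WT28) and 6.22 CPM (WT30), and at 5.36 (C12), 10.1 (C15), 7.97 (S04) and 1.76 CPM (S36). Within both groups this is the order of PTPRF and PTPRS, with WT13 and C15 highest and WT28 and S36 lowest, but unlike PTPRF the groups overlapped (log2 fold change -0.54, SE 0.53). PPFIA4 was the only one of 13 tested LAR ligands and partners with that order, against 0.197% of all tested genes. It was chosen after its values were seen, and parts of the PTPRF order lie within counting error, as given above.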
